A study of Mus musculus with 106 samples.

Results

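Genes for regulators of G protein signalling (RGS) were followed across neuron classes and genotypes in Huntington's disease (HD) mice. The 10 genes, *Rgs2*, *Rgs4*, *Rgs6*, *Rgs7*, *Rgs8*, *Rgs9*, *Rgs10*, *Rgs14*, *Rgs16* and *Rgs17*, were chosen by name, with earlier results of these data known. They are 10 of the 21 protein-coding genes with an Rgs number among 55401 mouse genes in the count table. RGS proteins carry a domain that speeds up hydrolysis of GTP by G protein alpha subunits and so ends signalling from G protein coupled receptors. The members fall into 4 subfamilies. R4 proteins (*Rgs2*, *Rgs4*, *Rgs8*, *Rgs16*) are small, R7 proteins (*Rgs6*, *Rgs7*, *Rgs9*) form a complex with the beta subunit Gnb5, R12 is represented by *Rgs10* and *Rgs14*, and RZ by *Rgs17*.

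The mice were heterozygous knock-ins with a long CAG repeat in the endogenous huntingtin gene (HD mice, Hdh Q7/Q200), and their controls were littermates without it (Hdh Q7/Q7) on a 129S4 background, taken at 9 months of age per the methods, which describe the Gad2, PV and vGluT2 lines. Each mouse also carried RiboTag, a floxed *Rpl22* allele that gains an HA tag in cells with Cre, and a Cre driver for Gad2+, parvalbumin (PV+), somatostatin (SST) or vGluT2+ neurons. Immunoprecipitated (IP) RNA comes from tagged ribosomes and total RNA from all cells of the same homogenate. The 45 mice gave 67 IP and 39 total RNA libraries, 106 altogether. IP libraries of control and HD mice numbered 6 and 6 in cerebral Gad2+, 6 and 5 in PV+, 5 and 4 in SST, 6 and 6 in cerebral vGluT2+, 6 and 6 in cerebellar Gad2+, and 5 and 6 in cerebellar vGluT2+ neurons. Total RNA had 3 and 3 per line and region, except 4 and 4 for the vGluT2 line in cerebellum and 4 and 3 for the SST line.

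Of the 5 control SST IPs 3 (replicates 3, 4 and 6) carry another mouse code than the HD SST mice, as do 2 of the 4 SST-line control total RNA libraries, so genotype and mouse code are partly mixed there. A further 3 IP libraries, each from an HD mouse (cerebellar Gad2+, PV+ and cerebral vGluT2+), are marked re. The methods give 3 libraries that failed at first and have longer reads from a later run, and these were read as the same 3. Library totals ran from 21905221 to 107753586 counts (median 35866725). Levels below are CPM, counts scaled by library size with TMM factors, and changes are log2 fold changes. A called gene has an adjusted p of 0.05 or less in the quasi-likelihood test of edgeR, adjusted by Benjamini-Hochberg.

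Markers of the targeted cells were higher in the IPs than in total RNA by edgeR's quasi-likelihood test (Benjamini-Hochberg). *Gad2* had log2 differences of 1.71 (adjusted p 4.29e-09) in cerebral and 1.79 (adjusted p 1.42e-09) in cerebellar Gad2+ IPs, *Pvalb* 2.38 (adjusted p 3.77e-15) in PV+ IPs, and *Sst* 2.44 (adjusted p 7.56e-12) in SST IPs. *Slc17a6* (vGluT2) stood 0.98 (adjusted p 0.00161) above total RNA in cerebral and 1.57 (adjusted p 0.00168) in cerebellar vGluT2+ IPs by the same test. The Gad2+ IPs were mixtures: *Ppp1r1b* of striatal projection neurons was 2.15 above total RNA in cerebrum, and *Pcp2* of Purkinje cells 1.60 above it in cerebellum. In cerebellar vGluT2+ IPs the granule cell gene *Cbln3* was 0.95 above total RNA and *Pcp2* was at −4.37. The glutamatergic gene *Slc17a7* was at 936 ± 96.2 CPM in control PV+ and 948 ± 156 CPM in control SST IPs, and *Slc17a6* at 132 ± 24.5 and 128 ± 26.3 CPM. Whether these counts came from tagged cells or from RNA carried over in the IP was not tested. In IP and total RNA alike, fewer cells and less RNA per cell cannot be told apart.

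Of the 10 members, 5 lie on chromosome 1 of GRCm38: *Rgs2* (chr1:143999338-144004161, minus strand), *Rgs8* (chr1:153653025-153700323, plus), *Rgs16* (chr1:153740349-153745468, plus), *Rgs4* (chr1:169741477-169747642, minus) and *Rgs7* (chr1:175059087-175492500, minus). *Rgs8* and *Rgs16* are 40.0 kb apart on the same strand with 0 protein-coding genes between them, and *Rgs4* is 45.7 kb from *Rgs5*. The other members are *Rgs6* (chr12:82588292-83162056, plus), *Rgs9* (chr11:109225355-109298129, minus), *Rgs10* (chr7:128373621-128418758, minus), *Rgs14* (chr13:55369732-55384687, plus) and *Rgs17* (chr10:5825663-5922400, minus).

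Control IPs were compared over the 6 neuron classes, with TMM factors of all control IPs together, so these CPM differ slightly from those of the HD comparisons. For each gene the classes were put in order of mean level, and neighbours in the order were compared by a two-sided exact permutation test on log2 CPM, adjusted over 50 pairs. Cerebral and cerebellar IPs of the Gad2 and vGluT2 lines share mice, which this test did not take into account. Of the 50 pairs, 25 passed an adjusted p of 0.05. *Rgs2*, which acts mainly on Gq, had its highest level in cerebral Gad2+ IPs (153 ± 18.5 CPM), 0.97 above cerebral vGluT2+ IPs (77.9 ± 8.39; exact permutation test, adjusted p 0.00601). PV+ (68.5 ± 7.17) and SST (62.8 ± 6.3) followed, and the cerebellar Gad2+ (20.5 ± 3.11) and vGluT2+ IPs (15.8 ± 4.25) were lowest. *Rgs4*, a regulator of Gi and Gq with a short-lived protein, followed a different order, with 492 ± 56.9 CPM in cerebral vGluT2+, 316 ± 29 in cerebral Gad2+, 171 ± 33.1 in SST and 169 ± 10.4 in PV+ IPs. The step from cerebral Gad2+ to SST IPs was 0.90, and the step from PV+ to cerebellar Gad2+ IPs (21.2 ± 4.33) was 2.99. Cerebellar vGluT2+ IPs held 16.3 ± 8.93 CPM of *Rgs4*, which put the highest mean of the 6 classes 30.2 times above the lowest.

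**Figure D1:**
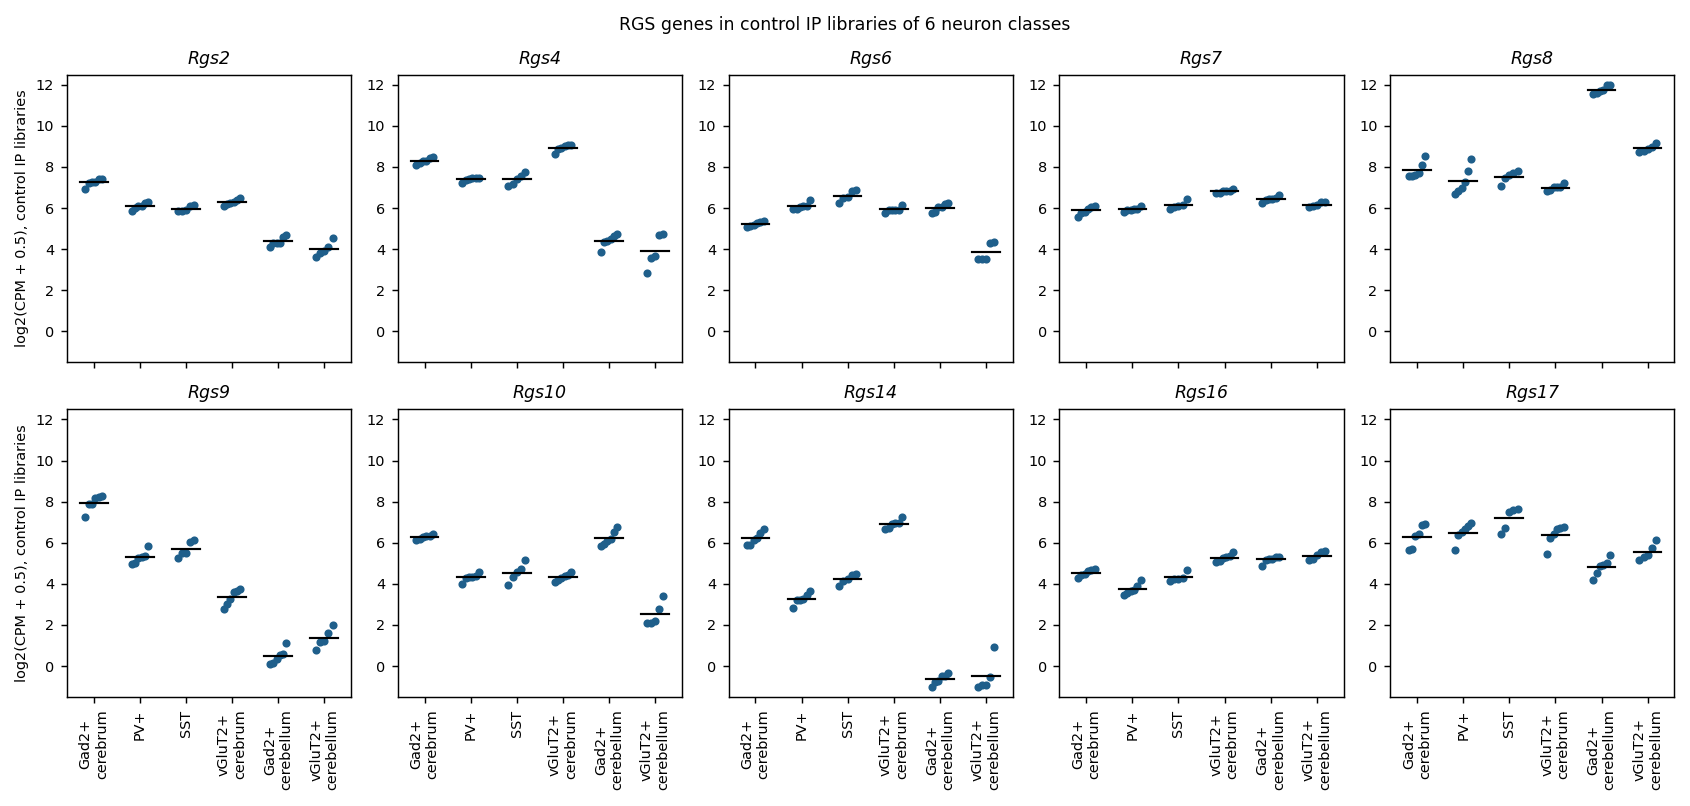
Levels of the 10 RGS genes in control IP libraries. Each dot is 1 library, plotted as log2(CPM + 0.5) with TMM factors over all control IPs, and bars are means. Libraries number 6 per class, and 5 in SST and cerebellar vGluT2+ IPs.

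*Rgs8*, an R4 gene of Purkinje cells, spanned 27.4 times between classes. Its mean was 3510 ± 473 CPM in cerebellar Gad2+ IPs, 482 ± 57.6 in cerebellar vGluT2+, 238 ± 75.1 in cerebral Gad2+, 187 ± 33.5 in SST, 176 ± 89.3 in PV+ and 128 ± 11.7 in cerebral vGluT2+ IPs. The steps of 2.86 and 1.06 at the top of this order passed, and the 3 lower ones missed the threshold. Some cerebral control IPs held Purkinje cell RNA. *Pcp2* ran from 0.089 to 74.4 CPM in cerebral Gad2+ IPs. PV+ replicate 2, with 335 CPM of *Rgs8*, had a Purkinje cell sum of 2210 CPM (others 671 to 1120). The part of this RNA in the *Rgs8* levels, or in its values against total RNA, was not tested. *Rgs16*, which acts on Gi and Gq, varied less, by 3.15 times, from 41.3 ± 5.79 CPM in cerebellar vGluT2+ to 13.1 ± 2.62 CPM in PV+ IPs. Between these came cerebral vGluT2+ (38.4 ± 4.69), cerebellar Gad2+ (36.1 ± 3.64), cerebral Gad2+ (22.8 ± 2.59) and SST IPs (19.6 ± 3.32). Although *Rgs8* and *Rgs16* are neighbours in the genome, their orders of level differed.

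Among the R7 genes, *Rgs9*, whose long form is known from striatum, spanned 273 times. It stood at 254 ± 59.1 CPM in cerebral Gad2+, 52.6 ± 14.4 in SST, 39.8 ± 9.6 in PV+, 9.92 ± 2.61 in cerebral vGluT2+, 2.15 ± 0.881 in cerebellar vGluT2+ and 0.929 ± 0.41 in cerebellar Gad2+ IPs. Of its 5 steps 4 passed, and SST against PV+ did not. *Rgs7*, which regulates Go signalling with Gnb5, varied by 1.90 times between cerebral vGluT2+ (112 ± 5.9 CPM) and cerebral Gad2+ IPs (59 ± 7.8), with cerebellar Gad2+ at 86.7 ± 8.17, cerebellar vGluT2+ at 71.5 ± 5.45, SST at 70.9 ± 10.1 and PV+ at 60.8 ± 4.51. *Rgs6*, the R7 gene studied most in heart and cerebellum, was highest in SST IPs (98 ± 17.1 CPM), 0.51 above PV+ IPs (68.4 ± 8.36; exact permutation test, adjusted p 0.0148). It was at 65 ± 9.07 in cerebellar Gad2+, 60.8 ± 5.61 in cerebral vGluT2+, 37 ± 2.9 in cerebral Gad2+ and 14.4 ± 4.78 in cerebellar vGluT2+ IPs.

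In the R12 subfamily *Rgs14*, a scaffold known from hippocampal area CA2, was close to absent from cerebellar IPs. Its means were 121 ± 19 CPM in cerebral vGluT2+, 75.3 ± 17.3 in cerebral Gad2+, 18.5 ± 2.93 in SST, 9.31 ± 1.83 in PV+, 0.328 ± 0.597 in cerebellar vGluT2+ and 0.149 ± 0.109 in cerebellar Gad2+ IPs. The 5 cerebellar vGluT2+ libraries were at 0.0, 0.029, 0.0301, 0.195 and 1.39 CPM, and without the highest (replicate 5) the order of the cerebellar classes was reversed. Replicate 5 also had the most SST neuron RNA of these controls (summed level of 3 genes 64.4 CPM, mostly *Sst*, against 0.234 to 9.62 CPM), and the part of such RNA in the *Rgs14* value was not tested. *Rgs10*, a small protein of neurons and microglia, was at 77.7 ± 5.44 in cerebral and 75.9 ± 20.2 CPM in cerebellar Gad2+ IPs, and the step from there to SST IPs (23.8 ± 7.76) was 1.67. Cerebral vGluT2+ (19.6 ± 2.48), PV+ (19.6 ± 2.5) and cerebellar vGluT2+ IPs (5.61 ± 2.77) followed. *Rgs17*, of the RZ subfamily with a preference for Gz and Gi, had wide spread within groups: 154 ± 52.9 CPM in SST, 93.3 ± 25.5 in PV+, 86 ± 25.1 in cerebral vGluT2+, 82.9 ± 30 in cerebral Gad2+, 47.8 ± 14.1 in cerebellar vGluT2+ and 28.9 ± 8.47 in cerebellar Gad2+ IPs. For *Rgs17* the step between the cerebellar classes (0.73; exact permutation test, p 0.0152, adjusted p 0.0303) was the 1 of 5 that passed.

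To compare genes with each other, CPM was divided by the summed exon length in kb. *Rgs8* then made up 75.1% of the level of all 21 Rgs genes in cerebellar Gad2+ IPs (364 of 485 CPM per kb) and 44.6% in cerebellar vGluT2+ IPs. *Rgs4* was the most abundant in the 4 cerebral classes, with 50.4% in vGluT2+, 33.8% in PV+, 30.5% in Gad2+ and 28.9% in SST IPs. In cerebral Gad2+ IPs *Rgs4* (102 CPM per kb) was followed by *Rgs10* (45.4), *Rgs2* (42.3) and *Rgs9* (39.8). Second places elsewhere went to *Rgs10* in cerebellar Gad2+ (44.3), *Rgs16* in cerebellar vGluT2+ (17.6), *Rgs14* in cerebral vGluT2+ (28.6), *Rgs2* in PV+ (18.9) and *Rgs8* in SST IPs (19.4). The 10 members held from 87.3% (SST) to 95.1% (cerebellar Gad2+) of the level of the 21 genes.

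Against total RNA of the same region, with genotype as a covariate, most genes differed, so that 63.1% of all genes tested were called in cerebral Gad2+ and 67.3% in cerebellar Gad2+ IPs. In cerebral Gad2+ IPs 5 of 10 members were called higher, *Rgs9* (2.15), *Rgs2* (1.58), *Rgs8* (1.0), *Rgs10* (0.91) and *Rgs17* (0.76), and *Rgs6* lower (−0.54). *Rgs4* (0.11), *Rgs7* (−0.02), *Rgs14* (−0.03) and *Rgs16* (0.0) were not called there. The cerebellar Gad2+ IPs had 7 of 9 members higher, with *Rgs10* (1.46), *Rgs8* (1.34) and *Rgs6* (1.2) first, then *Rgs7* (0.85), *Rgs2* (0.64), *Rgs4* (0.56) and *Rgs16* (0.53), and *Rgs9* lower (−0.80). In cerebral vGluT2+ IPs (63.8% of genes called) *Rgs7* (0.93), *Rgs14* (0.89), *Rgs4* (0.87), *Rgs17* (0.72), *Rgs2* (0.65) and *Rgs16* (0.55) were higher, and *Rgs9* (−2.42) and *Rgs10* (−1.05) lower. In cerebellar vGluT2+ IPs (69.9%) *Rgs17* (1.01), *Rgs7* (0.61), *Rgs9* (0.52) and *Rgs2* (0.41) were higher, while *Rgs10* (−2.28), *Rgs8* (−1.47) and *Rgs6* (−1.09) were lower. Over 4 alternative settings *Rgs2* ran there from 0.03 to 0.62 and kept its call in 2. *Rgs9* ran from 0.25 to 0.74 and kept it in 1, and *Rgs17* from 0.46 to 1.49 and kept it in 3. The other 4 of these members kept theirs in all 4. In PV+ IPs 5 of 10 members were higher and 5 lower, and in SST IPs 5 higher and 4 lower. Over 4 alternatives 8 to 9 members were called in each of these classes. In PV+ IPs *Rgs7* kept its call in 1 of 4 and *Rgs8* in 2 of 4, and in SST IPs *Rgs16* kept its call in 1 of 4. The PV+ (73.2%) and SST IPs (64.9%) shared *Rgs17* as the most enriched member, at 1.02 and 1.77, and *Rgs14* as the most depleted, at −2.83 and −1.79. Members whose IP and total RNA values did not overlap numbered 4 of 10 in cerebral Gad2+ (14.8% of all genes), 2 of 10 in PV+ (19.6%), 2 of 10 in SST (8.41%), 5 of 10 in cerebral vGluT2+ (15.3%), 4 of 9 in cerebellar Gad2+ (18.7%) and 3 of 10 in cerebellar vGluT2+ IPs (21.8%). The cerebral comparisons share their total RNA libraries, as do the cerebellar ones. Many IP and total RNA libraries come from the same mice, which these fits did not take into account. Over 4 alternatives *Rgs17* in cerebral Gad2+ IPs and *Rgs4* and *Rgs9* in cerebellar Gad2+ IPs each kept their call in 3.

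Over the 54 control libraries, IP and total RNA together, the 2 genes whose log2 CPM followed each member most closely were found by Pearson correlation among 13437 genes. The libraries share mice and regions, so these values are descriptions. They were *Akap5* (r 0.953) and *Oprk1* (0.944) for *Rgs2*, *Rasgef1b* (0.986) and *Mal2* (0.983) for *Rgs4*, *Pkp3* (0.981) and *Cep76* (0.980) for *Rgs8*, and *Kcnip3* (0.869) and *Zfp341* (0.823) for *Rgs16*. In the R7 subfamily they were *Dscam* (0.964) and *Lmo7* (0.900) for *Rgs6*, *Btbd10* (0.902) and *Ranbp9* (0.858) for *Rgs7*, and *Drd2* (0.979) and *Asic4* (0.976) for *Rgs9*. *Rgs10* had *Penk* (0.931) and *Lmo2* (0.906), *Rgs14* had *Grasp* (0.986) and *Rab40b* (0.985), and *Rgs17* had *Nexmif* (0.921) and *Dsel* (0.901). Between members the values ran from 0.964 for *Rgs4* with *Rgs14* to −0.854 for *Rgs8* with *Rgs14*.

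HD and control IPs were compared within each neuron class. As the members were chosen with earlier results of these data known, their counts and medians beside those of all genes are descriptions. In cerebral Gad2+ IPs 1 of 10 members was called (*Rgs4*), against 4 of 14342 genes tested (0.0279%), and 9 of 10 members had fold changes below 0, with a median of −0.34 against −0.005 over all genes. The cerebellar vGluT2+ IPs had 1 of 9 members called (*Rgs16*), against 282 of 13487 genes (2.09%), and 5 of 9 below 0 (median −0.01 against −0.008). In PV+ IPs edgeR called 0 of 10 members and 6 of 14713 genes (0.0408%), with *Rgs4* and *Rgs9* at an unadjusted p under 0.05 and 0 members called by DESeq2. SST IPs had 0 of 10 members called by edgeR and 0 of 14689 genes (0.0%), 0 members at an unadjusted p under 0.05 and 0 by DESeq2. In cerebral vGluT2+ IPs edgeR called 0 of 10 members and 0 of 14354 genes (0.0%), while *Rgs4*, *Rgs7* and *Rgs16* had an unadjusted p under 0.05 and DESeq2 called 1 member, *Rgs4*. Of the SST values below 0, *Rgs6* (−0.17) and *Rgs8* (−0.18) were at 0.10 and 0.01 with mice of 1 code alone. Cerebellar Gad2+ IPs had 0 of 9 members called by edgeR, against 2 of 14098 genes (0.0142%), with *Rgs8* and *Rgs16* at an unadjusted p under 0.05 and 0 by DESeq2. Members below 0 numbered 8 of 10 in PV+ (median −0.18 against 0.009), 5 of 9 in cerebellar Gad2+ (−0.05 against −0.01), 9 of 10 in SST (−0.18 against −0.013) and 9 of 10 in cerebral vGluT2+ IPs (−0.17 against −0.009). *Rgs14* was not tested in cerebellar IPs, where its mean count did not exceed 10.

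Over all genes, those at an unadjusted p under 0.05 in edgeR numbered 1319 of 14342 in cerebral Gad2+, 1092 of 14354 in cerebral vGluT2+, 216 of 14689 in SST, 619 of 14713 in PV+, 340 of 14098 in cerebellar Gad2+ and 2082 of 13487 in cerebellar vGluT2+ IPs. Groups without overlap were counted as well. *Rgs4* was the 1 of 10 members without overlap in cerebral Gad2+ IPs (0.572% of all genes tested) and *Rgs16* the 1 of 9 in cerebellar vGluT2+ IPs (3.98%). Such members numbered 0 of 9 in cerebellar Gad2+ (0.326%), 0 of 10 in cerebral vGluT2+ (0.697%), 0 of 10 in PV+ (0.564%) and 0 of 10 in SST IPs (0.749%). In total RNA they were 0 of 10 in cerebrum (0.0807%) and 2 of 10, *Rgs6* and *Rgs8*, in cerebellum (1.26%).

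**Figure D2:**
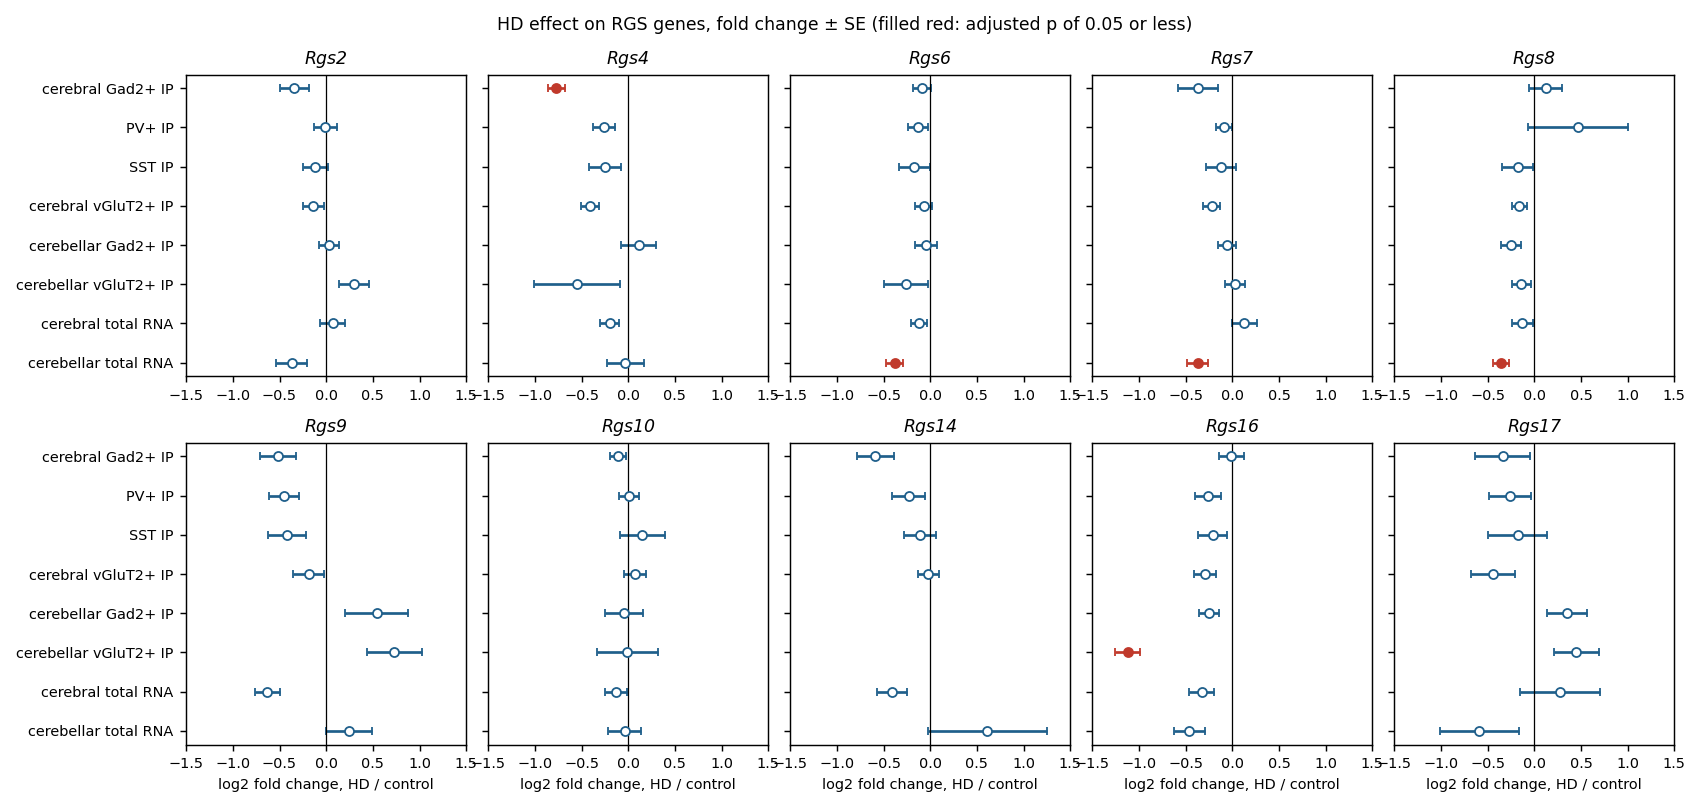
HD effect on each RGS gene in 6 IP comparisons and in total RNA of 2 regions. Points are log2 fold changes with standard errors. Filled red points have an adjusted p of 0.05 or less in the quasi-likelihood test of edgeR, adjusted by Benjamini-Hochberg. *Rgs14* was not tested in cerebellar IPs.

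*Rgs4* in the 6 control cerebral Gad2+ IPs had a lowest, median and highest level of 275, 325 and 356 CPM, and in the 6 HD IPs of 171, 187 and 205 CPM. All 6 HD values lay below all 6 controls. *Rgs4* fell by a log2 fold change of −0.77 (SE 0.0898, edgeR's quasi-likelihood test, Benjamini-Hochberg adjusted p 0.00368). With each library left out in turn the value ran from −0.82 to −0.74 and the adjusted p from 0.00184 to 0.0237. In cerebral vGluT2+ IPs, where *Rgs4* is highest, the control libraries had 365, 489 and 516 CPM (lowest, median, highest) and the HD libraries 306, 358 and 385. The fold change there was −0.41 (SE 0.0942, adjusted p 0.449 by the same test), and DESeq2 gave −0.42 (adjusted p 0.0208). PV+ IPs ranged from 156 to 182 CPM (median 180) in controls and were at 102, 138, 141, 169 and 175 CPM in HD mice (−0.26, SE 0.122, adjusted p 1.0 by the same test). The 102 CPM library is HD replicate 3, which also held the most Purkinje and granule cell RNA of the PV+ IPs (values given with *Rgs8*), and without it the *Rgs4* value was −0.16. SST controls had 150, 159, 182, 201 and 233 CPM and SST HD libraries 120, 160, 164 and 176 CPM (−0.25, adjusted p 1.0), and with mice of 1 code alone the value was −0.48 (SE 0.219, unadjusted p 0.0544, adjusted p 1.0).

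In cerebellum *Rgs4* averaged 21 ± 4.23 CPM in control and 22.6 ± 6.09 CPM in HD Gad2+ IPs (0.11), and 15.8 ± 8.62 and 10.8 ± 8.07 CPM in vGluT2+ IPs (−0.55, SE 0.46). In the latter *Rgs4* was highest in control replicates 5 (24.8 CPM) and 2 (25.1) and HD replicate 5 (25.7), and SST neuron genes were highest in the same 3 libraries. The sum of these genes in replicates 1 to 5 of the controls was 1.83, 9.62, 3.5, 0.234 and 64.4 CPM, and in replicates 1 to 6 of the HD mice 0.779, 0.545, 4.21, 0.131, 18.2 and 0.154 CPM. *Sst* was the most abundant of the 3 genes and had at least 0.0525 CPM in every library, while *Chodl* and *Crhbp* were at 0 in some. Of the 3 genes 1 was tested, and it was below 0 (−2.08) but not called by edgeR, with 0 at an unadjusted p under 0.05 and 0 by DESeq2. What these genes contribute to the *Rgs4* value was not tested. Cerebral total RNA held 244 ± 29.9 and 213 ± 34.8 CPM of *Rgs4* (−0.20; edgeR's quasi-likelihood test, Benjamini-Hochberg adjusted p 0.789).

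Whether the HD effect on *Rgs4* differed between classes was tested as an interaction. The cerebral Gad2+ effect was −0.35 (SE 0.125, edgeR's quasi-likelihood test, Benjamini-Hochberg adjusted p 1.0) relative to vGluT2+ IPs, −0.48 (SE 0.146, adjusted p 0.91) relative to PV+ IPs and −0.88 (SE 0.209, adjusted p 0.297) relative to cerebellar Gad2+ IPs. DESeq2 gave −0.89 (adjusted p 0.033) for the last of these, and edgeR gave −1.01 (adjusted p 0.0435) without HD replicate 4 of the cerebellar Gad2+ IPs. Cerebral and cerebellar Gad2+ IPs come from the same mice, and these values are from fits without the mouse as a block. By edgeR 0 of 10 members passed in each of these 3 interactions, as did 0 of 14477, 0 of 14626 and 0 of 14472 genes (0.0% each), and 218, 446 and 772 genes had an unadjusted p under 0.05. DESeq2 called 1, 1 and 21 genes, and 0, 0 and 1 members. *Rgs4* had an unadjusted p under 0.05 in all 3, *Rgs14* in the first and *Rgs9* in the last.

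Striatal projection neuron genes moved in the same direction as *Rgs4* in cerebral Gad2+ IPs. Of 10 such genes 10 were below 0 (median −0.50), 9 at an unadjusted p under 0.05, with 0 called by edgeR and 4 by DESeq2. Their summed level was 6030, 7010, 7100, 7180, 7620 and 7790 CPM in controls and 3690, 3870, 4830, 4930, 5340 and 5820 CPM in HD libraries. *Ppp1r1b*, the most abundant of them, averaged 2340 ± 326 and 1570 ± 407 CPM (−0.58; edgeR's quasi-likelihood test, Benjamini-Hochberg adjusted p 0.379), and 0 of the 10 genes were absent from a library. Their part in the *Rgs4* result was not tested. Among the other members in cerebral Gad2+ IPs *Rgs14* went from 76.7 ± 17 to 51.1 ± 16.1 CPM (−0.59, SE 0.198, adjusted p 0.536 by the same test), *Rgs9* from 259 ± 60.5 to 180 ± 45.1 (−0.52, SE 0.192, adjusted p 0.536) and *Rgs2* from 156 ± 18.8 to 123 ± 30.7 (−0.34, SE 0.153, adjusted p 0.536). *Rgs7* was at 60.1 ± 8.01 and 46.6 ± 16.7 CPM (−0.37), *Rgs8* at 243 ± 73.5 and 263 ± 42.5 CPM (0.12), and *Rgs16* at 23.2 ± 2.66 and 23.1 ± 4.56 CPM (−0.01). HD replicates 3, 5 and 6 were lowest for *Rgs7* (25.4, 28.6 and 44.7 CPM) and *Rgs2* (90.6, 102 and 97.5 CPM). The other HD libraries had 55.4 to 65.1 CPM of *Rgs7* and 132 to 161 CPM of *Rgs2*. For *Rgs9* and *Rgs14* HD replicate 1 was lowest (113 and 34.2 CPM).

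**Figure D3:**
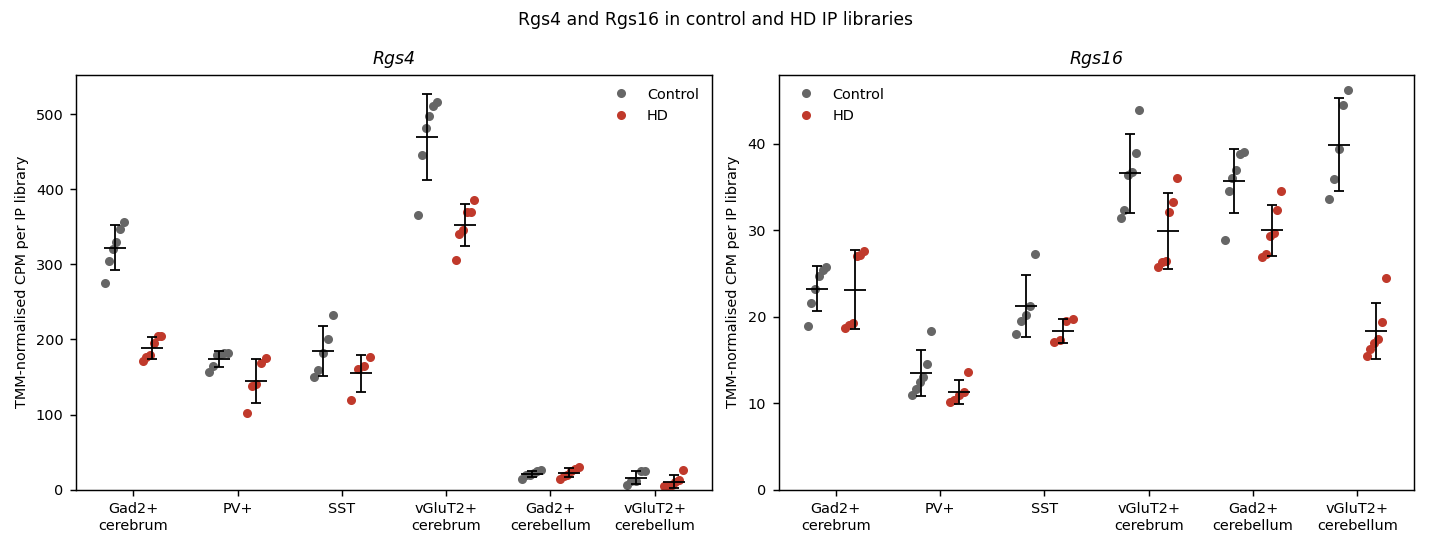
*Rgs4* and *Rgs16* in each control (grey) and HD (red) IP library of 6 neuron classes. Dots are TMM-normalised CPM of single libraries, and bars are mean ± SD.

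*Rgs16* in the 5 control cerebellar vGluT2+ IPs was at 33.6, 35.9, 39.4, 44.5 and 46.2 CPM, and in the 6 HD IPs at 15.5, 17.2 and 24.5 CPM (lowest, median, highest). All 6 HD libraries lay below all 5 controls. *Rgs16* fell by a log2 fold change of −1.12 (SE 0.135, edgeR's quasi-likelihood test, Benjamini-Hochberg adjusted p 0.000621). Leaving out each library gave −1.23 to −1.08 (adjusted p 9.42e-05 to 0.00269). Elsewhere *Rgs16* had lower means in HD libraries by smaller amounts: 35.7 ± 3.74 and 30 ± 2.95 CPM in cerebellar Gad2+ IPs (−0.25, SE 0.106, adjusted p 1.0 by the same test), 36.6 ± 4.55 and 30 ± 4.38 in cerebral vGluT2+ (−0.29, adjusted p 0.65), 13.5 ± 2.69 and 11.3 ± 1.39 in PV+ (−0.26) and 21.2 ± 3.57 and 18.4 ± 1.39 in SST IPs (−0.21, and −0.03 with mice of 1 code alone). The *Rgs16* effect in cerebellar vGluT2+ IPs differed from that in cerebellar Gad2+ IPs by −0.91 (SE 0.168, adjusted p 0.015 by the same test), an interaction in which 1 of 9 members and 15 of 13971 genes (0.107%) were called. Between the regions of the vGluT2 line the *Rgs16* effects differed by 0.82 (cerebrum minus cerebellum, SE 0.181, adjusted p 0.0482), with 1 of 10 members and 45 of 14253 genes (0.316%) called.

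With single libraries left out, the regional *Rgs16* difference ran from 0.74 to 0.91 (adjusted p 0.00871 to 0.13 by edgeR's quasi-likelihood test, Benjamini-Hochberg). It kept an adjusted p of 0.05 or less in 7 of 23 fits, those without cerebellar control 3 or 5, cerebral control 5, cerebellar HD 4, or cerebral HD 2, 5 or the library marked re, and lost it in the other 16. With the mouse as a block *Rgs16* had 0.82 (adjusted p 0.0925 by the same test). The cerebellar class difference of *Rgs16* kept its call in every such fit (−1.02 to −0.84, adjusted p 0.00165 to 0.0482).

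Granule cell genes were lower too in HD cerebellar vGluT2+ IPs. Of 5 such genes 5 were below 0, and 2 were called by edgeR's quasi-likelihood test (Benjamini-Hochberg), *Cbln3* (−0.80, adjusted p 0.000532) and *Neurod1* (−0.86, adjusted p 0.0131). The summed level was 7390, 9500, 9550, 9610 and 9920 CPM in controls and 4690, 5160, 5800, 6120, 6410 and 6970 CPM in HD libraries. *Cbln3*, the most abundant, averaged 4580 ± 614 and 2630 ± 125 CPM, and each of the 5 genes had at least 343 CPM in every library. Their part in the *Rgs16* result was not tested. The remaining members of this class had *Rgs9* at 2.09 ± 0.883 and 3.47 ± 0.904 CPM (0.73, SE 0.297, adjusted p 0.255 by the same test), *Rgs17* at 46.3 ± 14.1 and 63.6 ± 20.1 (0.45), *Rgs2* at 15.3 ± 4.27 and 18.9 ± 2 (0.30), *Rgs8* at 466 ± 50.5 and 423 ± 39.5 (−0.14), and *Rgs7* at 69.2 ± 5.09 and 70.5 ± 8.36 (0.03). *Rgs6* averaged 13.9 ± 4.62 and 11.7 ± 3.46 CPM (−0.26), and *Rgs10* 5.45 ± 2.75 and 5.43 ± 2.36 CPM (−0.01).

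*Rgs9* was compared in the 4 cerebral IPs, with values of −0.52 in Gad2+, −0.45 in PV+ (41 ± 9.92 and 30.1 ± 4.89 CPM), −0.42 in SST (57.2 ± 16.6 and 42.8 ± 5.11) and −0.19 in vGluT2+ IPs (9.41 ± 2.32 and 8.29 ± 0.72). In SST IPs the controls with the mouse code of the HD mice had 40.2 and 47.1 CPM of *Rgs9*, those with the other code 48.7, 71.8 and 77.9, and the HD libraries 36.2, 42.0, 44.6 and 48.3. With mice of the shared code alone the SST value was −0.03 (SE 0.204).

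In cerebral total RNA, tested with line as a covariate, the 9 controls had a lowest, median and highest *Rgs9* level of 43.2, 60.8 and 76.4 CPM and the 9 HD libraries of 29.5, 38.4 and 51.1 CPM. Both groups overlap between 43.2 and 51.1 CPM. The main fit did not pair total RNA libraries of the same replicate number, and whether such libraries belong together was not tested. The fold change of *Rgs9* was −0.63 (SE 0.135, edgeR's quasi-likelihood test, Benjamini-Hochberg adjusted p 0.0903), and DESeq2 gave −0.62 (adjusted p 0.00425). Without Gad2-line control 1 (−0.68, adjusted p 0.0406 by edgeR), Gad2-line HD 3 (−0.69, 0.0294) or PV-line HD 1 (−0.70, 0.0406) it passed, and the full range was −0.70 to −0.56 (adjusted p 0.0294 to 0.203). Each line alone gave −0.49 (Gad2), −0.56 (PV), −0.81 (vGluT2) and −0.28 (SST) for *Rgs9*. By edgeR 0 of 10 members were called in cerebral total RNA, against 32 of 14871 genes (0.215%), with *Rgs9*, *Rgs14* and *Rgs16* at an unadjusted p under 0.05 and 1 by DESeq2.

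Of the 10 striatal genes 3 were called lower in cerebral total RNA by edgeR's quasi-likelihood test (Benjamini-Hochberg): *Adora2a* (−0.87), *Penk* (−0.85) and *Adcy5* (−0.44), each with an adjusted p of 0.0494. *Ppp1r1b*, the most abundant, had −0.69 (adjusted p 0.241 by the same test). Their summed level ran from 1300 to 2330 CPM in controls and from 872 to 1480 CPM in HD libraries. In PV+ IPs, where *Rgs9* was at an unadjusted p of 0.0137 in edgeR, 9 of 10 striatal genes were below 0, 8 at an unadjusted p under 0.05, with 0 called by edgeR and 3 by DESeq2, and sums of 597 to 803 CPM in controls and 452 to 582 CPM in HD libraries. In SST IPs 10 of 10 were below 0, 4 at an unadjusted p under 0.05, with 0 called by edgeR and 0 by DESeq2, and sums of 928, 1030, 1120, 1130 and 1150 CPM in controls and 788, 798, 856 and 859 CPM in HD libraries. *Adcy5* was the most abundant of them in PV+ and SST IPs. Their part in the *Rgs9* values was not tested. *Rgs14* in cerebral total RNA averaged 73.2 ± 15.6 and 55 ± 12.4 CPM (−0.41, SE 0.156, adjusted p 0.527 by the same test) and *Rgs16* 25.8 ± 3.55 and 20.6 ± 5.61 CPM (−0.33, adjusted p 0.582).

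*Rgs8* in PV+ IPs changed direction with 1 library. Controls had a lowest, median and highest level of 107, 145 and 340 CPM, and HD replicate 3 held 790 CPM of *Rgs8* while the other 4 HD libraries had 103 to 130 CPM. The fold change of 0.47 (SE 0.536, edgeR's quasi-likelihood test, Benjamini-Hochberg adjusted p 1.0) became −0.65 without HD replicate 3, and −0.37 when control replicate 2 was left out with it (chosen after seeing the data). Purkinje cell genes were highest in the same libraries: their summed level was 671, 738, 820, 861 and 1120 CPM in 5 controls and 2210 CPM in control replicate 2, and 627, 675, 706 and 800 CPM in 4 HD libraries and 5010 CPM in HD replicate 3. *Itpr1* was the most abundant of these 5 genes, of which 5 were above 0 and 0 were called by edgeR, with 0 at an unadjusted p under 0.05 and 0 by DESeq2. Granule cell genes summed to 74.4, 82.2, 91.1, 110 and 111 CPM in 5 controls and 295 CPM in replicate 2, and to 45.9, 77.7, 83.6 and 109 CPM in 4 HD libraries and 626 CPM in replicate 3. Control replicate 6, with 232 CPM of *Rgs8*, had sums of 861 CPM for Purkinje and 74.4 CPM for granule cell genes. Control replicate 1, with 116 CPM of *Rgs8*, had a Purkinje cell sum of 1120 CPM. The defining genes *Pcp2* (at least 0.543 CPM) and *Gabra6* (at least 0.0572 CPM) were above 0 in every library. Their part in the *Rgs8* result was not tested. In cerebellar Gad2+ IPs *Rgs8* averaged 3480 ± 517 in controls and 2920 ± 279 CPM in HD libraries (−0.25, SE 0.108, adjusted p 1.0 by the same test).

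Cerebellar total RNA had 3 of 10 members called, all lower in HD mice, against 3704 of 14477 genes (25.6%). With single libraries left out these counts ran from 0 to 4 members and from 92 to 7456 genes. Members below 0 numbered 8 of 10, with a median of −0.37 against −0.003 over all genes. *Rgs6* had a lowest, median and highest level of 30.8, 33.1 and 35.5 CPM in the 7 controls and 23.1, 24.8 and 29.8 CPM in the 7 HD libraries, and fell by −0.38 (SE 0.0893, edgeR's quasi-likelihood test, Benjamini-Hochberg adjusted p 0.0268). *Rgs8* had 1330, 1530 and 1680 CPM in controls and 1050, 1180 and 1250 in HD libraries (−0.36, SE 0.087, adjusted p 0.0268 by the same test). Neither *Rgs6* nor *Rgs8* overlapped between groups. *Rgs7*, with 47.6, 54.3 and 63.9 against 36.0, 41.9 and 57.3 CPM, overlapped and fell by −0.37 (SE 0.112, adjusted p 0.0341). *Rgs16* averaged 27.9 ± 3.85 and 20.3 ± 5.82 CPM (−0.46, SE 0.165, adjusted p 0.0515), and *Rgs2* 15.8 ± 3.77 and 12.2 ± 2.47 CPM (−0.37, adjusted p 0.0997).

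Each Cre line was also tested alone in cerebellar total RNA. The vGluT2 line had 7565 of 14630 genes called (51.7%) and 5 members lower: *Rgs17* (−1.32, adjusted p 0.00815 by edgeR's quasi-likelihood test, Benjamini-Hochberg), *Rgs2* (−0.72, adjusted p 0.00904), *Rgs7* (−0.57, adjusted p 0.00234), *Rgs6* (−0.49, adjusted p 0.00366) and *Rgs8* (−0.41, adjusted p 0.00914). The Gad2 line alone had 0 of 14226 genes called by edgeR and 315 at an unadjusted p under 0.05, with *Rgs17* at 0.38, *Rgs2* at 0.07, *Rgs7* at −0.13, *Rgs6* at −0.25 and *Rgs8* at −0.31. Over single libraries left out, *Rgs6* ran from −0.41 to −0.35 (adjusted p 0.0027 to 0.0624), *Rgs7* from −0.44 to −0.33 (0.00265 to 0.078) and *Rgs8* from −0.40 to −0.33 (0.00538 to 0.0624). All 3 lost their call without any 1 of vGluT2-line controls 1 to 4, Gad2-line HD 2, or vGluT2-line HD 2, 3 or 4. *Rgs7* and *Rgs8* also lost it without Gad2-line control 2, and *Rgs7* without vGluT2-line HD 1. *Rgs2* ran from −0.46 to −0.24 (adjusted p 0.0236 to 0.213), passing without Gad2-line HD 3 and nearest 0 without vGluT2-line control 4 (24.0 CPM, other controls of that line 15.0 to 15.7). *Rgs16* passed without Gad2-line control 3 (adjusted p 0.0483) or vGluT2-line HD 1 (−0.60, adjusted p 0.0405).

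Of 5 Purkinje cell genes 2 were called lower in cerebellar total RNA, where 25.6% of all genes were called, and 4 of 5 were below 0. The called genes were *Itpr1* (−0.93, edgeR's quasi-likelihood test, Benjamini-Hochberg adjusted p 0.0274) and *Calb1* (−0.55). The summed level of the 5 genes was 4220, 4540 and 5310 CPM in Gad2-line and 4810, 5200, 5300 and 5580 CPM in vGluT2-line controls. HD libraries had 3140, 3410 and 4500 CPM in the Gad2 line and 2750, 3010, 3140 and 3210 CPM in the vGluT2 line. *Pcp2* itself averaged 414 ± 71.4 in vGluT2-line controls and 487 ± 70.1 CPM in HD libraries of that line. Of the 5 granule cell genes 1 was called lower, *Cbln3* (−0.55, adjusted p 0.0262 by the same test). In the vGluT2 line their sum was 3890 to 5880 CPM in controls and 2390 to 4040 CPM in HD libraries. Lists moved both ways in that line. GABAergic genes summed to 816 to 1010 and 682 to 808 CPM. Higher in HD libraries were sums of glutamatergic (568 to 812 against 1260 to 1450 CPM), PV (2200 to 2680 against 2710 to 3380) and microglia genes (74.7 to 85.0 against 112 to 127). The part of these lists in the *Rgs6*, *Rgs7* and *Rgs8* results was not tested.

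*Rgs10* had HD fold changes between −0.13 and 0.15 in the 8 comparisons, and 0 of these were called by edgeR or DESeq2, with 0 at an unadjusted p under 0.05. *Rgs17* varied widely between mice, for example from 48.6 to 125 CPM in control and 43.4 to 113 CPM in HD cerebral Gad2+ IPs (−0.34, SE 0.297). In cerebral vGluT2+ IPs *Rgs7* averaged 107 ± 6.28 and 91.6 ± 10.4 CPM (−0.22; edgeR's quasi-likelihood test, Benjamini-Hochberg adjusted p 0.65), and *Rgs14* 115 ± 17 and 114 ± 12.3 CPM (−0.02).

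Genes acting beside the members were tallied in the same fits, named where called or most abundant. In cerebral Gad2+ IPs edgeR called 0 of 6 other Rgs genes tested (2 at an unadjusted p under 0.05, 0 by DESeq2), 0 of 4 partners of R7 proteins (1, 0), 0 of 12 G protein alpha subunits (2, 0), 0 of 14 beta and gamma subunits (0, 0), 0 of 26 receptors (8, 4) and 0 of 14 effectors (3, 0). Over all genes there 4 of 14342 were called and 1319 were at an unadjusted p under 0.05. Beside *Rgs16* in cerebellar vGluT2+ IPs, where 282 of 13487 genes (2.09%) were called and 2082 were at an unadjusted p under 0.05, *Rgs3* was the 1 of 6 other Rgs genes called, up from 54 ± 4.33 to 79.8 ± 10.2 CPM (0.56, edgeR's quasi-likelihood test, Benjamini-Hochberg adjusted p 0.0167). *Grm4* was the 1 of 24 receptors called there (−1.16, adjusted p 0.00288 by the same test), while *Gabbr1*, the most abundant, had −0.01. In that class edgeR called 0 of 4 R7 partners (1 at an unadjusted p under 0.05, 0 by DESeq2), 0 of 11 alpha subunits (3, 0), 0 of 13 beta and gamma subunits (1, 0) and 0 of 12 effectors (2, 0).

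*Grm4* was also the 1 of 22 receptors called in cerebellar Gad2+ IPs (−0.88, edgeR's quasi-likelihood test, Benjamini-Hochberg adjusted p 0.0378), against 2 of 14098 genes called and 340 at an unadjusted p under 0.05. The other lists there had 0 called by edgeR: 0 of 6 other Rgs genes (0 at an unadjusted p under 0.05, 0 by DESeq2), 0 of 5 R7 partners (0, 0), 0 of 11 alpha (0, 0), 0 of 13 beta and gamma subunits (0, 0) and 0 of 14 effectors (2, 0). In cerebral total RNA *Adora2a* was the 1 of 25 receptors and *Adcy5* the 1 of 14 effectors called, both lower, and edgeR called 0 of 7 other Rgs genes, 0 of 4 R7 partners, 0 of 12 alpha and 0 of 14 beta and gamma subunits (0 at an unadjusted p under 0.05 and 0 by DESeq2 in each). Over all genes 32 of 14871 were called in that tissue and 1007 were at an unadjusted p under 0.05. PV+, SST and cerebral vGluT2+ IPs had 0 genes of these lists called by edgeR, though DESeq2 called 2, 0 and 1 receptors, of which 7, 3 and 6 had an unadjusted p under 0.05 in edgeR. Such genes numbered 619 of 14713, 216 of 14689 and 1092 of 14354 in the same 3 classes.

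In cerebellar total RNA, where 25.6% of all genes were called beside *Rgs6*, *Rgs7* and *Rgs8*, *Gnb5* (0.39) and *Gpr179* (1.09) rose and *Rgs7bp* fell (−1.07) among 4 R7 partners. *Rgs19* (0.63) and *Rgs3* (0.55) rose and *Rgs20* (−0.50) and *Rgs22* (−1.62) fell among 7 other Rgs genes. Of 11 alpha subunits 3 rose (*Gnai2* 0.62, *Gna11* 0.56, *Gnas* 0.31) and 1 fell (*Gnal* −0.63), and of 14 beta and gamma subunits 3 rose (*Gnb2* 0.69, *Gng11* 0.59, *Gng7* 0.58) and 0 fell. Of 24 receptors 2 rose and 9 fell, with *Gabbr1*, the most abundant, at 0.29 and *Grm4* at −0.87. Effectors called were 4 of 14, each lower: *Plcb4* (−1.32), *Plcb1* (−1.17), *Adcy1* (−0.74) and *Kcnj9* (−0.42). All genes called in this tissue ran from 92 to 7456 with single libraries left out, and numbered 0 in the Gad2 line alone.

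The bases around the start of transcription are printed for *Rgs4* and *Rgs16*, the 2 members called in an IP comparison. They run from 250 bases before the start to 50 after it on GRCm38.p6, with RefSeq as the source, and are written 5' to 3' on the strand of the gene.

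Rgs4 promoter, chr1:169747593-169747892, minus strand: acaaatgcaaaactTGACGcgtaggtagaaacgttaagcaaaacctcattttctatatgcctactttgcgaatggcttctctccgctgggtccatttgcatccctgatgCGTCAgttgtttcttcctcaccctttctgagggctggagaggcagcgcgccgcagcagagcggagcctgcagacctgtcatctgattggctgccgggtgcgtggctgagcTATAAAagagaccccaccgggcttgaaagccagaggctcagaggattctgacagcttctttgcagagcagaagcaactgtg

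Rgs16 promoter, chr1:153740103-153740402, plus strand: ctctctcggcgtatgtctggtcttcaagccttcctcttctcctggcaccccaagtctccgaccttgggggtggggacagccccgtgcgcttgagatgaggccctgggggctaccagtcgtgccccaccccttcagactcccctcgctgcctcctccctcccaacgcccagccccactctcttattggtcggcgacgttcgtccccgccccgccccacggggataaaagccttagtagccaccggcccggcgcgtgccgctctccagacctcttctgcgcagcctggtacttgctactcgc

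The *Rgs4* promoter holds 2 matches to TGACG, the core of the cAMP response element, counted on both strands, and 1 to TATAAA, while *Rgs16* holds 0 of either. The full element TGACGTCA, which contains TGACG, occurs in neither. Of 32851 promoters 20.8% hold TGACG, 13.6% TATAAA and 1.79% TGACGTCA. A match is a description of the sequence. Promoter entries were found for 9 of the 10 members, *Rgs14* being without one.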

How the data were processed

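The values used are expected counts per gene as deposited by the authors, who ran nf-core/rnaseq at its default settings (STAR alignment, Salmon quantification) on stranded poly(A) reads. Their notes name GRCm38.p6 with ERCC spike-in and HA tag sequences added, and no source used here gives the annotation release. Among deposited values 8.57% were not whole, and counts were rounded to whole numbers. Spike-ins (92), at most 4.45% of a library, were left out. Gene types, positions and exon lengths came from GENCODE M21, which holds 55141 of the 55401 identifiers.

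HD effects were tested with edgeR 4.0.16 (R 4.3.3; quasi-likelihood, TMM) on genes that code for protein and average more than 10 counts over the libraries of a comparison, and adjusted p-values of 0.05 or less by Benjamini-Hochberg were called. Total RNA of Gad2, PV and vGluT2 lines was tested with the line as a covariate. SST total RNA entered as an alternative because part of its controls carry another mouse code. Interactions tested differences between effects. The SE is the absolute log2 fold change over the root of F. Order of levels used log2(CPM + 0.5). Closest genes were sought among protein-coding genes with a mean of at least 1 CPM.

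The members and lists were chosen with earlier results of these data known. Other genes are named as markers of a cell type, as the closest 2 by correlation, or from a list when called (up to 5 by p) or most abundant. Pairs of control and HD libraries with the same replicate number had residual correlations from −0.304 to 0.519, and not every pair in any class exceeded 0.1, so the number was not used as a block. Alternatives were DESeq2 1.42.0, its size factors, no filter, all gene types, the replicate number or mouse as a block, *Xist* as a covariate, other sets of total RNA, CPM without TMM, a pseudocount of 0.1, and each library left out. The fits were tested on simulated data. Tables and figures used Python 3.11.15, numpy 2.4.6, pandas 2.3.3, scipy 1.17.1 and matplotlib 3.10.9.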

Additional observations from a re-analysis of the deposited data

Results flagged for a closer look

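In 5 of 150 groups of a member with 4 to 10 libraries, 1 library stood apart from the others, and chance marks about 1 in 20 such groups. In control PV+ IPs replicate 6 was apart for 2 genes, *Rgs6* with 87.1 CPM (others 63.8 to 70.7) and *Rgs9* with 59.9 CPM (others 32.4 to 41.3). In HD PV+ IPs replicate 3 had 790 CPM of *Rgs8* (others 103 to 130). Control replicate 4 of vGluT2-line cerebellar total RNA had 24.0 CPM of *Rgs2* (others 15.0 to 15.7). Control cerebellar vGluT2+ IP replicate 5 had 1.37 CPM of *Rgs14* (others 0.0 to 0.189). It also had the highest sum of SST neuron genes, mostly *Sst* (64.4 CPM, others 0.234 to 9.62), whose part in the *Rgs14* value was not tested. The HD effect on *Rgs16* passed 2 tests of a difference between groups in edgeR, −0.91 (adjusted p 0.015) between cerebellar vGluT2+ and Gad2+ IPs and 0.82 (adjusted p 0.0482) between cerebral and cerebellar vGluT2+ IPs. The latter come largely from the same mice, and with the mouse as a block the adjusted p was 0.0925, while 16 of 23 fits with a library left out also missed the threshold.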

How the results depend on the processing

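For members at an unadjusted p under 0.05 or called under any setting, and *Rgs8* in PV+ IPs, 83 fold changes had 930 values under an alternative, of which 845 kept their direction and side of the threshold, 65 no longer passed, 16 newly passed and 4 changed direction. *Rgs8* in PV+ IPs went from 0.47 to −0.37 with both Purkinje-high libraries left out (chosen after seeing the data) and ran from −0.65 to 0.75 with single libraries left out; the cause was not tested. In SST IPs with mice of 1 code *Rgs6* went from −0.17 to 0.1, *Rgs8* from −0.18 to 0.01, *Rgs10* from 0.15 to −0.14, *Rgs9* from −0.42 to −0.03, *Rgs16* from −0.21 to −0.03 and *Rgs4* from −0.25 to −0.48; the cause was not tested. Other member values near 0 also changed direction. In cerebellar total RNA of the Gad2 line alone *Rgs2* went from −0.37 to 0.07 and *Rgs17* from −0.59 to 0.38; the cause was not tested. Members called in cerebellar total RNA went from 3 to 0 (Gad2 line alone) and 5 (vGluT2 line alone), and to 0 to 4 with single libraries left out; the cause was not tested. In cerebral vGluT2+ IPs the count went from 0 to 1 by DESeq2, and in cerebral total RNA from 0 to 1 by DESeq2 and with the SST line added (*Rgs9* −0.52, adjusted p 0.0268 by edgeR), and to 0 to 1 with single libraries left out; the cause was not tested. For the Gad2+ difference of cerebrum and cerebellum it went from 0 to 1 by DESeq2, and to 0 to 1 with single libraries left out; the cause was not tested. For the vGluT2+ difference of the regions it went from 1 to 0 with the mouse or the replicate number as a block (the latter chosen after seeing the data; *Rgs16* 0.80, adjusted p 0.0947 by edgeR), and to 0 to 1 with single libraries left out; the cause was not tested. With the replicate block the *Rgs16* difference of the cerebellar classes was −0.85 (adjusted p 0.0185 by edgeR). Over alternatives other than leaving out single libraries, *Rgs4* in cerebral Gad2+ IPs ran from −0.78 to −0.73 and *Rgs16* in cerebellar vGluT2+ IPs from −1.13 to −1.03. Leaving out single libraries gave −0.82 to −0.74 for this *Rgs4* value and −1.23 to −1.08 for this *Rgs16* value. Between neighbours in the order of levels 24 to 26 of 50 pairs passed with single libraries left out. In these fits the order of classes stayed the same for *Rgs2*, *Rgs8*, *Rgs9* and *Rgs16*. Counted from the top, classes in place fell to as few as 4 (*Rgs14*), 2 (*Rgs4*, *Rgs7*), 1 (*Rgs6*, *Rgs17*) and 0 (*Rgs10*) of 6. Genes called by edgeR and DESeq2 numbered 4 and 75 in cerebral Gad2+, 6 and 42 in PV+, 0 and 2 in SST, 0 and 25 in cerebral vGluT2+, 2 and 22 in cerebellar Gad2+ and 282 and 665 in cerebellar vGluT2+ IPs, 32 and 119 in cerebral total RNA, and in the interactions 15 and 73 (cerebellar classes), 0 and 21 (Gad2+ regions) and 45 and 126 (vGluT2+ regions). With the replicate number as a block these were 9 (cerebral Gad2+), 0 (PV+), 0 (cerebellar Gad2+) and 109 (cerebellar vGluT2+), and with *Xist* 7, 0, 0 in the first 3, 1 in SST and 21 in cerebral total RNA. Without a filter cerebral vGluT2+ IPs had 1, PV+ IPs without both Purkinje-high libraries 0, cerebellar Gad2+ IPs 1 with DESeq2 size factors and 0 with all gene types, and cerebral total RNA 97 with the SST line and 0 for each line alone. Cerebellar total RNA had 3704, and 0 in the Gad2 and 7565 in the vGluT2 line alone. Against total RNA cerebral vGluT2+ IPs had 9469, and 6098 with the mouse as a block. With single libraries left out the counts ran from 3 to 20, 0 to 4, 0 to 1, 0 to 1, 0 to 3 and 154 to 275 in the IPs in the order above, 8 to 49 in cerebral and 92 to 7456 in cerebellar total RNA.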
